A study of Mus musculus with 12 samples.

Results

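Calcium release and store-operated entry genes were examined in sorted mouse B cells. They encode ryanodine receptors, IP3 receptors, SERCA pumps, the store sensor STIM1 and the channel ORAI1. Of 10 listed genes, 9 were measured by 26 probe sets that carry a single gene symbol, among 18193 genes on the arrays. Itpr1 was not analysed here. The set was picked because Ryr2 was low in age-associated B cells, so the Ryr2 values that rest on age-associated or follicular cells are described and carry no test. The 4 groups hold 3 arrays each, and all cells came from female C57BL/6 mice and were sorted without culture. Age-associated B cells (ABC) came from the spleen of mice older than 15 months. Old B1 cells came from the peritoneal cavity of mice older than 15 months, and young B1 cells from the peritoneal cavity of mice aged 8 weeks. Follicular B cells (FO) came from the spleen of mice older than 15 months. The sample titles call the peritoneal cells B1a and the cell type field calls them B1. Organ differs along with cell type wherever B1 cells are compared with ABC or FO cells, and the 2 cannot be told apart. The labels name neither the sort markers nor whether a sample was 1 mouse or a pool, and p-values therefore speak only of the spread among these samples, which may be technical.

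In a B cell, antigen binding to its receptor activates phospholipase C gamma 2, which makes the messenger IP3. IP3 opens IP3 receptors in the endoplasmic reticulum, and the emptied store is sensed by STIM1, which opens ORAI1 in the plasma membrane. Ryanodine receptors are a related family of release channels, best known from muscle and neurons and also found in lymphocytes. SERCA pumps carry calcium back into the store, and the sustained calcium signal drives calcineurin and NFAT.

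RefSeq windows were at hand for 7 of the 10 genes. The windows of the 4 release channels for which one was at hand are shown, since Ryr1 and Ryr2 differed in opposite directions between old B1 and FO, and Itpr2 and Itpr3 between ABC and old B1. Each is the stretch of 250 bases before the annotated gene start, written 5′ to 3′ on the gene's strand in build GRCm38.p6, with capitals on CpG dinucleotides. The windows are chr7:29125152-29125401 on the minus strand for Ryr1, chr13:12106946-12107195 on the minus strand for Ryr2, chr6:146502224-146502473 on the minus strand for Itpr2 and chr17:27057054-27057303 on the plus strand for Itpr3.
Ryr1: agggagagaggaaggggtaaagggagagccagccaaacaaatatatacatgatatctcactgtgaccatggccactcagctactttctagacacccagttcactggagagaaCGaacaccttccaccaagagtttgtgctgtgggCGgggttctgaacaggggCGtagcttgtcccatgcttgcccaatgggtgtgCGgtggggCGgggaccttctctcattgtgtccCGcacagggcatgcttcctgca
Ryr2: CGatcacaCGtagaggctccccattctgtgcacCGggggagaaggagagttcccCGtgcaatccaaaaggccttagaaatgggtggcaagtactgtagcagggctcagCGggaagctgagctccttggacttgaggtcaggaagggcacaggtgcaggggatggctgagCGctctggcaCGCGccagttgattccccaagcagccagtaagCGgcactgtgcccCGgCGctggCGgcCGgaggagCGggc
Itpr2: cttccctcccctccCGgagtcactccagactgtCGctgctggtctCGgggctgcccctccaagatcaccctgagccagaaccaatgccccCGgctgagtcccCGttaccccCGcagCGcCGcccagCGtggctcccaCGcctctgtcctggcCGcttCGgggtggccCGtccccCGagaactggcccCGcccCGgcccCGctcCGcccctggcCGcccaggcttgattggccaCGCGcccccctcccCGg
Itpr3: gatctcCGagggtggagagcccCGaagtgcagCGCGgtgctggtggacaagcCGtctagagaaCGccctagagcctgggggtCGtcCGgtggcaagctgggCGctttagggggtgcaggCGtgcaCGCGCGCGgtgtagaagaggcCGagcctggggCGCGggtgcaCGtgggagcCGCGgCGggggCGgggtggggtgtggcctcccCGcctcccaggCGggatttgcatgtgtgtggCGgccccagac
Ryr1 has 6 CpG dinucleotides in its window, the median over 32851 windows of the same length, and Ryr2 has 14, a number reached by 29.4% of windows. Itpr2 has 22 and Itpr3 has 25, reached by 14.8% and 10.7% of windows. Searched on both strands, GGAAA (the NFAT core), a palindromic EBF motif and AGGTGTGA (a T-box site) each had 0 matches in the 4 windows. They occur in 55.6%, 0.779% and 1.12% of all windows.

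The deposited values are intensity on a linear scale, and each gene was read from its brightest probe set. Differences below are log2 values ± the standard error of limma's fit over all 12 arrays, and a gene was called at an adjusted p under 0.05 over 18193 genes. Array medians lay between 44.0 and 49.2. The 75th percentile was 346 on old B1 replicate 3 and 378 on old FO replicate 2, against 400.1 to 412 on the other arrays. Both also had the lowest array weights, 0.102 and 0.349. The B cell genes Cd79b, which encodes part of the B cell receptor, and Ms4a1, or CD20, were bright on every array (11616 to 12851 and 7718 to 9339). Of the 9 B cell markers measured, 0 lay under the array median on all 12 arrays. Pax5 lay under it on the 3 old B1 arrays (42.4, 40.3 and 21.1). In old B1 against FO 1 of the 9 was called higher and 3 lower, beside 8.4% and 8.02% of all genes. ABC against old B1 had 2 higher and 0 lower, beside 7.4% and 5.43%. For ABC against FO the counts were 0 and 1, beside 7.12% and 2.84%. Marker lists of other cells differed between the groups. The summed intensity of 10 macrophage markers was 12309 to 14464 in ABC, 9423 to 19311 in old B1, 11208 to 16842 in young B1 and 937 to 2198 in FO. That of 8 neutrophil markers was 20693 to 35028 in ABC, 157 to 392 in old B1, 295 to 1465 in young B1 and 443 to 9959 in FO. For 5 mesothelial markers it was 122 to 401 in ABC, 5935 to 9753 in old B1, 3271 to 3614 in young B1 and 74.6 to 88.7 in FO. The keratins Krt8 and Krt18 carry that sum, and the other 3 (Msln, Upk3b and Wt1) lay under the array median on all 12 arrays. For 6 mast cell markers it was 178 to 597 in ABC, 1886 to 4423 in old B1, 2031 to 9417 in young B1 and 94.7 to 113 in FO. The 5 T cell markers measured summed to 2307 to 2887 in ABC, 400.3 to 2204 in old B1, 1035 to 1383 in young B1 and 887 to 1900.1 in FO. The 3 erythroid and platelet markers summed to 152 to 335 in ABC, 263 to 1959 in old B1, 858 to 1859 in young B1 and 110 to 237 in FO. Pf4 carries the B1 sums, with 1725, 1880 and 235 in old B1. Itga2b had 61.7, 64.3 and 19.4 there and 125, 92.6 and 63.1 in ABC, and Alas2 had 11.7, 14.6 and 8.63 in old B1. The part of these lists in the results on calcium genes was not tested. Of 6 striated muscle markers, 5 lay under the array median on all 12 arrays, and the list's sum was 122 to 171 over all arrays. In bulk samples such as these, fewer cells of a type and less RNA per cell cannot be told apart.

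**Figure D1:**
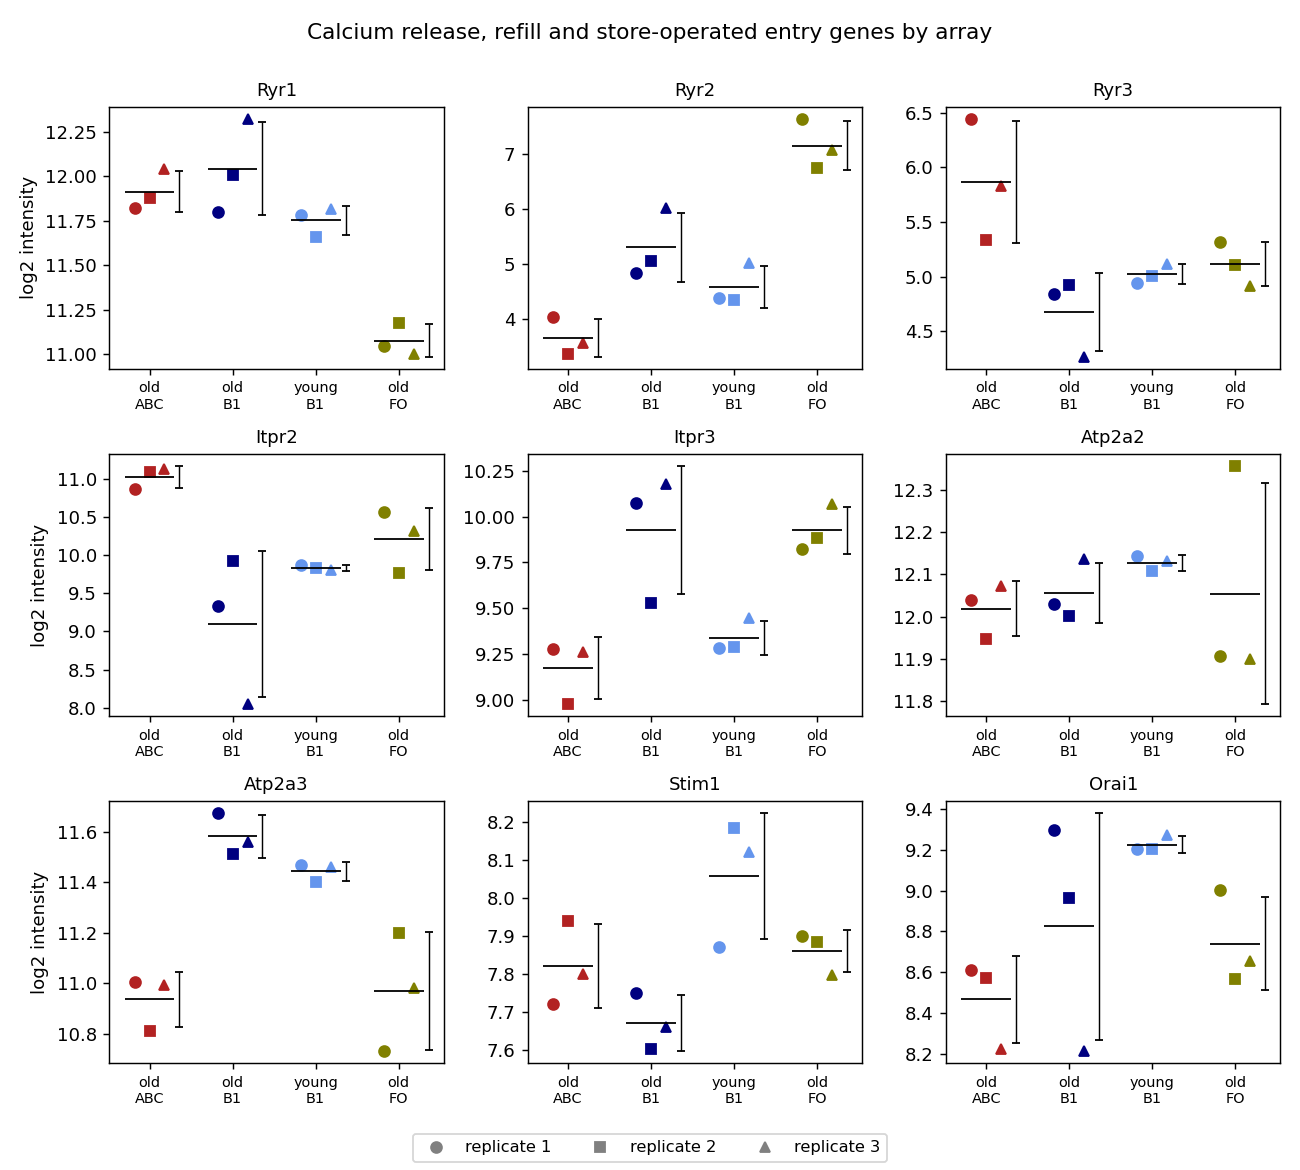
Log2 intensity of each measured gene (vertical axis, a separate scale in each panel) on every array of old ABC, old B1, young B1 and old FO cells (horizontal axis). Points are arrays, horizontal lines are group means and bars are ± SD of 3 arrays. Ryr1 is lowest on the 3 FO arrays, Ryr2 is highest on them, and Itpr2 is highest on the 3 ABC arrays.

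Among the ryanodine receptors, Ryr2, the receptor known best from heart muscle, chose the set. Its intensity was 16.5, 10.4 and 11.9 in ABC, 28.4, 33.4 and 64.7 in old B1, 20.9, 20.3 and 32.4 in young B1, and 198, 107 and 134 in FO. FO arrays were the highest and ABC arrays the lowest, with both B1 groups between them and overlapping each other. The difference was -3.48 ± 0.34 between ABC and FO, -1.64 ± 0.34 between ABC and old B1, and -1.84 ± 0.34 between old B1 and FO. These sizes are not exact. All 3 ABC arrays lay under their own median of all probe sets, 2 of them under the 25th percentile. The 3 young B1 arrays and 2 of the 3 old B1 arrays also lay under the median. The highest old B1 value belongs to replicate 3, without which the ABC to old B1 difference was -1.28 and the old B1 to FO difference -2.20. A second Ryr2 probe set ran from 16.1 to 28.5 and stayed under the median on all 12 arrays. With both averaged, the ABC to FO difference was -1.73 and the ABC to old B1 difference -0.72.

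Ryr1, the receptor of skeletal muscle, was lowest in FO, where Ryr2 was highest. Its intensity was 3615, 3759 and 4213 in ABC, 3567, 4115 and 5122 in old B1, 3519, 3236 and 3600.4 in young B1, and 2116, 2315 and 2049 in FO. Every FO array lay below every other array, the old B1 arrays overlapped both ABC and young B1 arrays, and every ABC array lay above every young B1 array. Ryr1 was higher in old B1 than in FO by 0.97 ± 0.13 (1.96-fold, adjusted p = 0.000643), and it kept its call and direction under all 21 alternatives run, with adjusted p from 5.35e-05 to 0.0224. ABC stood 0.84 ± 0.13 above FO and differed from old B1 by -0.13 (95% interval -0.43 to 0.17, adjusted p = 0.585). A second Ryr1 probe set lay between 6.65 and 10.7, under the 25th percentile of all 12 arrays. With both probe sets averaged, the difference between old B1 and FO was 0.47.

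Ryr3, the third family member, was dim. Its brightest probe set had 87.1, 40.3 and 56.9 in ABC, 28.6, 30.3 and 19.2 in old B1, 30.7, 32.1 and 34.8 in young B1, and 39.9, 34.4 and 30.2 in FO. Only 2 arrays, both ABC, were above their own median. ABC exceeded old B1 by 1.19 ± 0.26 (adjusted p = 0.0122). The call was lost with the mean of its 3 probe sets (0.05, adjusted p = 0.914) and in a fit of ABC and old B1 alone (adjusted p = 0.106). The other 2 Ryr3 probe sets were highest on old B1 replicate 3, at 47.2 and 57.6, and between 12.8 and 20.2 on all other arrays.

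The 2 IP3 receptors measured differed in opposite directions in ABC against old B1. Itpr2, which encodes IP3 receptor type 2, had 1858, 2176 and 2224 in ABC, 643, 967 and 265 in old B1, 933, 907 and 891 in young B1, and 1510.1, 870.1 and 1274 in FO. All ABC arrays lay above all other arrays, and the lowest value was that of old B1 replicate 3. Itpr2 was higher in ABC than in old B1 by 1.92 ± 0.38 (3.79-fold, adjusted p = 0.00759). Without old B1 replicate 3 the difference was 1.40, still called, and in a fit of ABC and old B1 alone the adjusted p was 0.0768. Of the 6 Itpr2 probe sets, 5 were called higher in ABC when all 45037 probe sets were fitted, by 1.40 to 2.54. In that fit 8.48% of all probe sets were called. The remaining one lay under the median on all 12 arrays. Against FO, the comparison that chose the set, values are described without a test. There Itpr2 in ABC stood 0.81 ± 0.38 higher, and all 6 probe sets had a positive difference, from 0.11 to 0.81. Of the 6, 0 passed the threshold, beside 6.13% of all probe sets. Without old B1 replicate 3, which shares in the estimate of the spread, 3 of the 6 passed it. The brightest, from which the gene is read, was among them. The gene's difference was 0.63 with array weights and 0.58 without that array and old FO replicate 2, both past the threshold. Nothing is read from these passes.

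**Figure D2:**
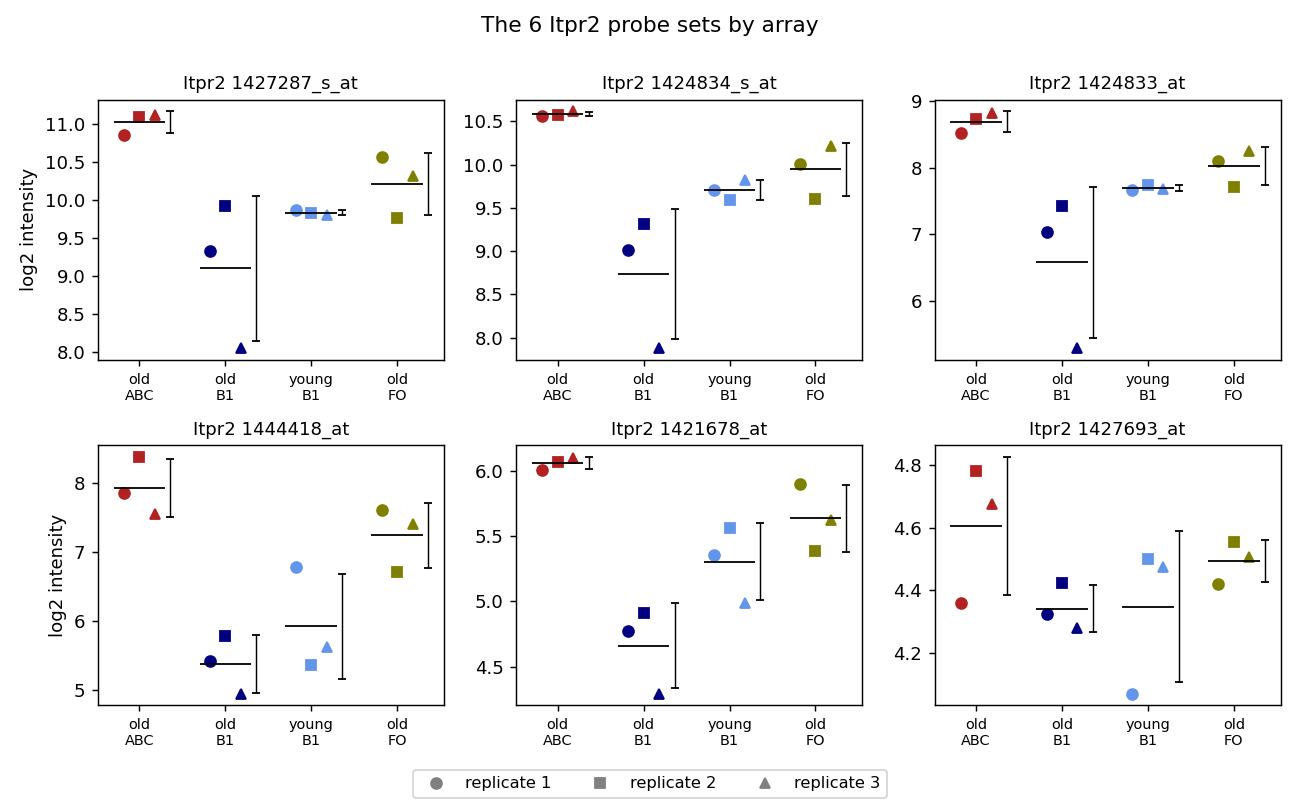
Log2 intensity of the 6 Itpr2 probe sets (vertical axis, a separate scale in each panel) on every array of old ABC, old B1, young B1 and old FO cells (horizontal axis). Points are arrays, lines are group means and bars are ± SD of 3 arrays. In 5 probe sets the ABC arrays lie above all old B1 arrays, and old B1 replicate 3 is the lowest array.

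In old B1 against FO the difference of Itpr2 on the brightest probe set was -1.12 ± 0.38, which was not called (adjusted p = 0.077). The groups overlapped, with 967 on old B1 replicate 2 and 870.1 on old FO replicate 2. Without old B1 replicate 3 the difference was -0.59, also not called. The difference was called without old B1 replicate 2 (-1.52, adjusted p = 0.0141), without old B1 replicate 3 and old FO replicate 2 together (-0.81, adjusted p = 0.0117), with array weights (-0.77, adjusted p = 0.0162) and with the mean of all its probe sets (-1.12, adjusted p = 0.0107). Of the 6 probe sets 3 were called lower in old B1, beside 11.5% of all probe sets called in either direction, and all 6 differences were negative, from -1.85 to -0.15.

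Itpr3, which encodes IP3 receptor type 3, had 1 probe set. It gave 619.7, 504 and 615 in ABC, 1079.8, 739.7 and 1158 in old B1, 622, 626 and 697 in young B1, and 906, 944 and 1074 in FO. The ABC arrays lay below every old B1 and every FO array, and below the young B1 arrays as well, the nearest being 622 in young B1 against 619.7 in ABC. Itpr3 was lower in ABC than in old B1 (-0.76 ± 0.17, adjusted p = 0.0129). Leaving out ABC replicate 2 ended that call (-0.66, adjusted p = 0.0577), as did a fit of ABC and old B1 alone (adjusted p = 0.106). ABC stood at -0.75 ± 0.17 against FO, a value described without a test. It no longer passed the threshold without ABC replicate 2 or without FO replicate 3. Old B1 and FO differed by 0.00 (95% interval -0.37 to 0.37, adjusted p = 0.995) on this gene. In ABC against old B1, 8 of 8 neutrophil, 1 of 10 macrophage and 1 of 5 T cell markers were called higher, beside 7.4% of all genes. Called lower were 4 of 6 mast cell, 2 of 5 mesothelial, 1 of 3 erythroid and platelet and 1 of 10 macrophage markers, beside 5.43%. The part of these markers in the IP3 receptor differences was not tested.

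Of the SERCA pumps, Atp2a3, which encodes SERCA3, the form typical of blood cells, followed the B1 cells. It had 2052, 1796 and 2039 in ABC, 3270.0, 2919 and 3022 in old B1, 2839, 2702 and 2818 in young B1, and 1699, 2351 and 2021 in FO. On this probe set, its brightest, all 6 B1 arrays lay above all ABC and FO arrays. On the second, old FO replicate 2 (524) lay above young B1 replicate 3 (507). Atp2a3 was lower in ABC than in old B1 (-0.65 ± 0.12, 1.57-fold, adjusted p = 0.00586) and higher in old B1 than in FO (0.61 ± 0.12, 1.53-fold, adjusted p = 0.00612). Its second probe set gave -1.10 and 1.02, both called when all probe sets were fitted. The call against FO was lost in a fit of old B1 and FO alone (adjusted p = 0.0739).

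Atp2a2, which encodes SERCA2, the form found in most tissues, was not called in old B1 against FO (0.00, 95% interval -0.28 to 0.28) or in ABC against old B1 (-0.04, 95% interval -0.31 to 0.24). Its brightest probe set ran from 3824 to 5245, the highest value being that of old FO replicate 2. The other 5 probe sets were lowest on old B1 replicate 3, for example 243 on one of them against 824 and 805 on old B1 replicates 1 and 2. On the brightest, that array had 4502.2, above old B1 replicates 1 and 2. Without old B1 replicate 3, 0 of the 6 probe sets were called in any comparison.

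Stim1, the calcium sensor of the store, had 211, 246 and 223 in ABC, 215, 195 and 202 in old B1, 234, 291 and 279 in young B1, and 239, 237 and 223 in FO. It was not called in ABC against old B1 (0.15, 95% interval -0.09 to 0.39) or in old B1 against FO (-0.19, 95% interval -0.43 to 0.05). Orai1, the pore of store-operated entry, had 390.3, 379.8 and 299 in ABC, 629.5, 499 and 297 in old B1, 589, 589 and 618 in young B1, and 512, 379 and 403 in FO. Old B1 replicate 3 lay beside ABC replicate 3 at the low end, under the other old B1 arrays, and the young B1 arrays lay above all ABC and FO arrays. A dimmer Orai1 probe set ran from 27.3 to 81.2, under the median on 7 arrays. Orai1 was not called in ABC against old B1 (-0.36, 95% interval -0.89 to 0.18, adjusted p = 0.393). It was called there without old B1 replicate 3 (-0.66, adjusted p = 0.0222), and also without that array and old FO replicate 2 (-0.66, adjusted p = 0.0183) and with array weights (-0.58, adjusted p = 0.0196).

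**Figure D3:**
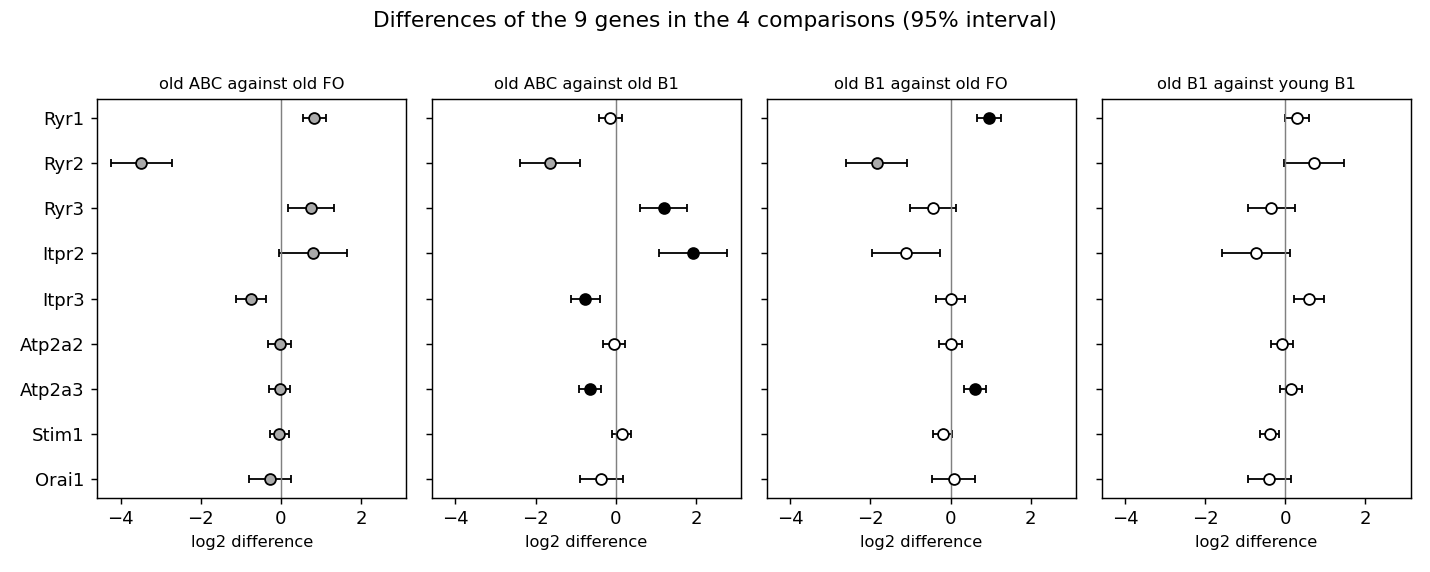
Log2 differences (horizontal axis) of the 9 genes (rows) in the 4 comparisons, with 95% intervals from limma. Filled black points were called, white points were not, and grey points are described without a test. Grey marks all 9 genes in ABC against FO, the comparison that chose the set, and Ryr2 in ABC against old B1 and old B1 against FO. Itpr2 lies to the right and Itpr3 to the left of 0 in ABC against old B1.

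Leaving aside Ryr2, which chose the set, 4 of 8 genes were called in ABC against old B1, Ryr3 and Itpr2 higher and Itpr3 and Atp2a3 lower. Of all genes 12.8% were called there, 7.4% higher and 5.43% lower. The groups did not overlap for 5 of the 9 with Ryr2 included, beside 28.8% of all genes. The median difference of the 9 was -0.13, and that of all genes 0.02. In a fit of these 2 groups alone 1 of the 9, Atp2a3, was called. In old B1 against FO 2 of 8 were called, Ryr1 and Atp2a3, both higher, beside 16.4% of all genes (8.4% higher and 8.02% lower). The groups did not overlap for 4 of the 9 with Ryr2 included, beside 28.9% of all genes. The median difference was 0.00 over the 9 and -0.04 over all genes. In ABC against FO, the comparison that chose the set, 3 of 9 passed the threshold (Ryr1 higher, Ryr2 and Itpr3 lower) and 9.96% of all genes did, 7.12% higher and 2.84% lower. Nothing is read from that count. The median was -0.04 over the 9 and -0.03 over all genes. ABC against FO and ABC against old B1 share the ABC arrays, and old B1 against FO shares arrays with both.

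Age within B1 cells was the remaining comparison. In old B1 against young B1, 0 of 9 genes were called by limma, beside 0.291% of all genes, and 2 had an unadjusted p under 0.05. The groups did not overlap for 4 of the 9, beside 13.9% of all genes (6.14% higher and 7.75% lower in old B1), and the median difference was -0.07 over the 9 and -0.01 over all genes. The 2 with an unadjusted p under 0.05 were Stim1 (-0.39 ± 0.11, 95% interval -0.63 to -0.15, adjusted p = 0.288) and Itpr3 (0.59 ± 0.17, 95% interval 0.22 to 0.96, adjusted p = 0.302). All 3 old B1 arrays lay under all young B1 arrays for Stim1 and above them for Itpr3. Without old B1 replicate 2 Itpr3 was called (0.79, adjusted p = 0.049). Both Stim1 probe sets had a negative difference. Ryr2, for which this comparison did not choose the set, differed by 0.72 ± 0.34 (95% interval -0.03 to 1.48, adjusted p = 0.672). Array weights, the replicate block and the loss of old B1 replicate 3 and old FO replicate 2 each left the count at 0.

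Other genes of calcium handling were taken from 9 lists, with 96 of 105 listed genes measured. In ABC against old B1, 19 of the 96 were called, 7 higher and 12 lower (19.8%, beside 12.8% of all genes), with a median difference of 0.06. In old B1 against FO, 21 were called, 17 higher and 4 lower (21.9%, beside 16.4% of all genes), with a median of -0.02. In old B1 against young B1, 2 were called, both higher (2.08%, beside 0.291% of all genes), with a median of -0.02. In ABC against FO, 11 were called, 7 higher and 4 lower (11.5%, beside 9.96% of all genes), with a median of 0.07.

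Among 16 partners of release channels, 5 were called higher in old B1 than in FO and 0 lower, beside 8.4% higher and 8.02% lower of all genes. Asph, whose locus encodes the store protein junctin besides an aspartate hydroxylase, had 1977, 2071 and 3425 in old B1, and between 48.6 and 81.1 in FO. It was higher in old B1 than in FO by 5.18 ± 0.28 (adjusted p = 1.4e-06) and lower in ABC than in old B1 (-3.26 ± 0.28, adjusted p = 4.55e-05). It was also higher in old B1 than in young B1 (1.97 ± 0.28, adjusted p = 0.02), where the young arrays had 668, 551 and 632. That call was lost without young B1 replicate 1 (adjusted p = 0.0775), replicate 2 (adjusted p = 0.102) or replicate 3 (adjusted p = 0.113), with a replicate block (adjusted p = 0.0778) and in a fit of these 2 groups alone (adjusted p = 0.11). Jph1, a junctophilin that holds store and plasma membrane together in muscle, was higher in old B1 than in young B1 (1.70 ± 0.17, adjusted p = 0.00486) and than in FO (1.09 ± 0.17, adjusted p = 0.00153). It had 35.0, 24.5 and 33.9 in old B1 and 10.7, 8.82 and 8.98 in young B1, under the median on all 12 arrays. The young B1 values lay under the 25th percentiles of their arrays (12.4, 12.7 and 12.6), as did old FO replicate 1 (12.4 against 12.9). These differences are therefore not exact in size, and the filter on dim genes drops Jph1. In a fit of old and young B1 alone its adjusted p was 0.0681. The epithelial keratins Krt8 and Krt18 of the mesothelial list were also higher in old B1 than in FO, while its other 3 markers were not called. In the same comparison 10 of 10 macrophage markers, 5 of 6 mast cell markers and 1 of 3 erythroid and platelet markers (Pf4) were called higher. Of 8 neutrophil and 5 T cell markers 0 were called. The part of all these markers was not tested.

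Among 9 pumps and exchangers, Atp2b1 and Atp2b4, plasma membrane calcium pumps, were higher in old B1 than in FO by 1.01 ± 0.15 (adjusted p = 0.00124) and 2.77 ± 0.52 (adjusted p = 0.00426). Atp2b4 was lower in ABC than in old B1 (-2.61 ± 0.52, adjusted p = 0.0077), with 18.6, 11.1 and 16.1 in ABC and 111, 159 and 42.8 in old B1, and lay under the median on 9 arrays. Among 13 second messenger genes 4 were lower in ABC than in old B1 and 0 higher, beside 5.43% lower and 7.4% higher of all genes. Inpp5a, a phosphatase that degrades IP3, was lower by 1.50 ± 0.16 (-1.50, adjusted p = 0.000144), with 316, 206 and 281 in ABC and 841, 748 and 663 in old B1. Plcb2, a phospholipase C that makes IP3, was lower as well (-1.01 ± 0.20, adjusted p = 0.00641). Bst1, or CD157, an ectoenzyme related to CD38, was lower in ABC than in old B1 (-2.21 ± 0.50, adjusted p = 0.0146) and higher in old B1 than in FO (2.71 ± 0.50, adjusted p = 0.00379). Its call in ABC ended when ABC replicate 2 was left out (adjusted p = 0.0539) and in a fit of ABC and old B1 alone (adjusted p = 0.0954), and its FO call in a fit of old B1 and FO alone (adjusted p = 0.0533).

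**Figure D4:**
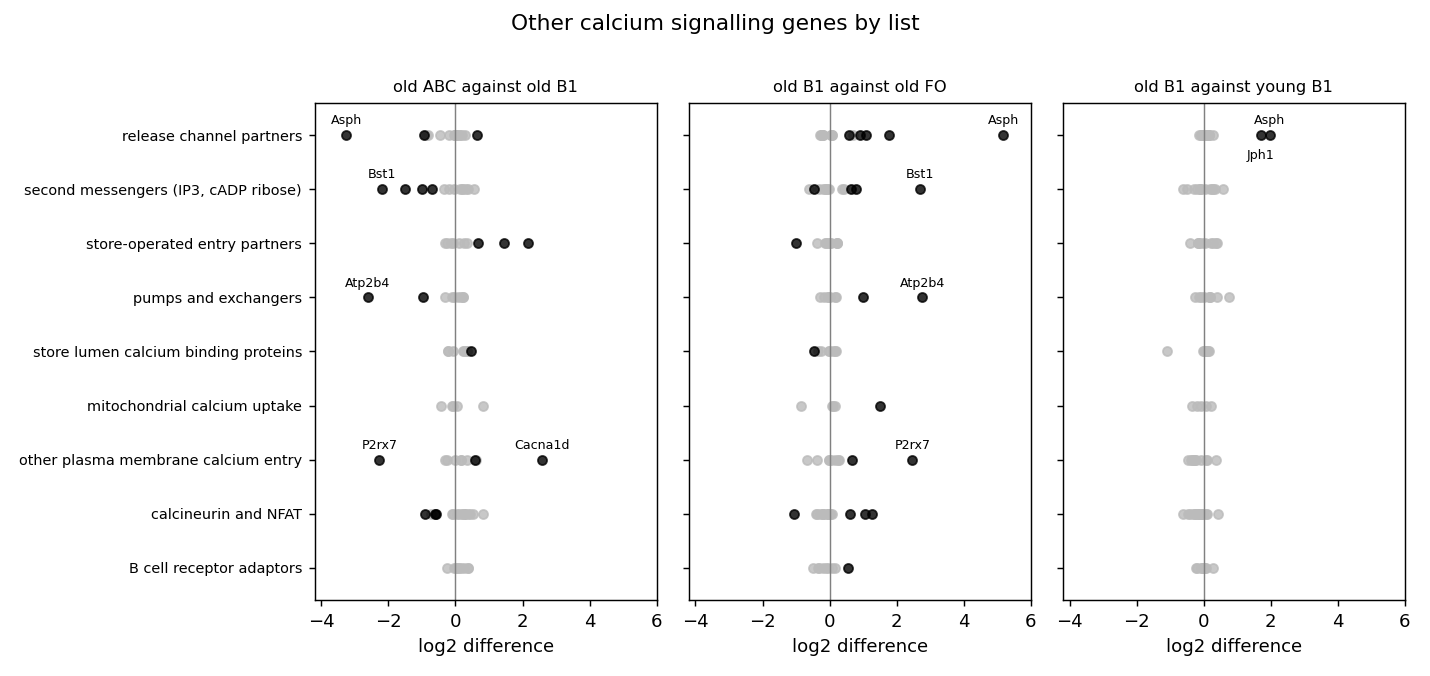
Log2 differences (horizontal axis) of 96 other calcium handling genes, grouped by list (rows), in 3 comparisons. Each point is a gene, black where called and grey where not, and the named genes with the largest differences are labelled. Asph lies at -3.26 in ABC against old B1, 5.18 in old B1 against FO and 1.97 in old B1 against young B1.

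Of 10 store-operated entry partners 3 were higher in ABC than in old B1 and 0 lower, beside 7.4% higher and 5.43% lower of all genes. Stimate, a STIM regulator of the endoplasmic reticulum, was higher by 1.46 ± 0.22 (adjusted p = 0.00156), with 187, 271 and 232 in ABC and 100.2, 101 and 55.8 in old B1. The others of the 3, outside the naming rule, were Saraf (0.67 ± 0.19, adjusted p = 0.0481) and Trpc1 (2.16 ± 0.51, adjusted p = 0.0176). Trpc1 had 38.8, 146 and 25.5 in ABC and lay under the median on 11 arrays. Saraf was not called without old B1 replicate 3 and old FO replicate 2. In a fit of the 2 groups alone only Stimate of the 3 stayed called. Of 10 genes on the list of other entry channels, 2 were higher in ABC than in old B1 and 1 lower, beside 7.4% and 5.43% of all genes. Trpm4, outside the naming rule, was among the higher (0.59 ± 0.16, adjusted p = 0.0327) and was not called in a fit of the 2 groups alone. P2rx7, an ATP-gated channel, was lower in ABC than in old B1 (-2.27 ± 0.21, adjusted p = 7.25e-05) and higher in old B1 than in FO (2.47 ± 0.21, adjusted p = 2.39e-05). Cacna1d, a voltage-gated calcium channel subunit, was higher in ABC than in old B1 (2.58 ± 0.58, adjusted p = 0.0137), with 1153, 227 and 724 in ABC and 141, 147 and 42.8 in old B1. Leaving out ABC replicate 1 ended that call (2.08, adjusted p = 0.0514), as did leaving out ABC replicate 3 (2.42, adjusted p = 0.0523) and a fit of the 2 groups alone (adjusted p = 0.122). Of 5 genes of mitochondrial uptake, Mcu, the uniporter pore, was higher in old B1 than in FO (1.50 ± 0.20, adjusted p = 0.000566). Rcan3, a regulator of calcineurin, was higher in old B1 than in FO (1.07 ± 0.21, adjusted p = 0.0061; 0.0767 in a fit of the 2 groups alone). The store lumen list had 1 of 8 genes (12.5%) called in each of ABC against old B1 and old B1 against FO. Of 9 B cell receptor adaptors, 0 were called in ABC against old B1 and 1 (11.1%) in old B1 against FO. Of all genes 12.8% were called in the first comparison and 16.4% in the second, so neither list stood above that share.

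The genes whose log2 intensity followed Ryr2 most closely over the 12 arrays were sought among 894 genes whose mean is not under that of the median probe set and that span at least 2 log2 units between group means. They were Lpar6, a lysophosphatidic acid receptor (Pearson's r = 0.903), Gch1, an enzyme of tetrahydrobiopterin synthesis (0.899), Mcoln3, a cation channel of endosomes and lysosomes (0.889), Slc30a4, a zinc transporter (0.887), and Slc16a6, a monocarboxylate transporter family member (0.877). Mcoln3 had 58.3, 21.3 and 26.4 in ABC, 112, 80.4 and 131 in old B1, 81.2, 100.5 and 59.7 in young B1, and 203, 222 and 193 in FO. The points share 4 groups of 3 arrays, so these values describe likeness of pattern only. Slc30a4, Lpar6 and Mcoln3, like Ryr2, had their highest B1 value on old B1 replicate 3, and Gch1 and Slc16a6 did not. On that array Slc30a4 had 2734, against 313 and 401 on the other old B1 arrays. Lpar6 had 1357 there, against 573 and 444.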

How the data were processed

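RNA of 4 groups of 3 sorted mouse B cell samples was measured on 12 Affymetrix arrays. The authors deposited linear intensity values. RMA and affy are named per the submitters' processing notes, with versions and settings not given in the sources used here. For the tests the log2 of each intensity was taken. Of 45037 probe sets 34945 carried 1 gene symbol, and each of 18193 genes was read from its brightest probe set by mean log2, with no filter on dim probe sets. All 12 arrays were fitted with 4 group means in limma 3.58.1 (R 4.3.3, lmFit and eBayes, 8 residual and 2.37 prior degrees of freedom), with Benjamini-Hochberg adjustment within each comparison. The number of arrays limits the precision. Members and lists were chosen with earlier results of these data known. Named genes are all members, list genes called with a difference of at least 1 (up to 8 of lowest p per comparison, ABC against FO left out), and the 5 genes most like Ryr2, with predicted genes, clones and immunoglobulin segments passed over. Alternatives were an intensity trend, array weights, 2-group fits, a replicate block, cyclic loess, a filter on dim genes, other uses of the probe sets, and arrays left out. The fit was tested on simulated data. Plots used Python 3.11.15 with matplotlib 3.10.9.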

Additional observations from a re-analysis of the deposited data

How the results depend on the processing

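Of 748 refitted differences of the 9 genes, 726 kept their side of the threshold, 9 lost a call, 13 gained one and 0 called differences changed sign. These include Ryr2 and ABC against FO, and uncalled differences that stayed uncalled, the larger share, count as kept. In the main fit 3 of 9 were called in ABC against FO, 5 in ABC against old B1, 3 in old B1 against FO and 0 in old B1 against young B1. Among differences not called, 32 changed sign. Of 374 refits of the 18 named list differences, 361 kept their call, 13 lost it and 0 changed sign. Counts of members called include Ryr2. Array weights moved the members called in ABC against FO to 5 and the list genes to 23. A fit of the 2 groups alone moved ABC against old B1 to 1 member and 10 list genes, and list genes to 9 in old B1 against FO and 0 in old B1 against young B1. Array weights and the loss of old B1 replicate 3 with old FO replicate 2 each gave 3 list genes in old B1 against young B1. The filter on dim genes, which drops Ryr2 and Ryr3, left 3 members called in ABC against old B1 and 1 list gene in old B1 against young B1. With each array left out in turn, members called were 2 to 4 in ABC against FO, 4 to 6 in ABC against old B1, 3 to 4 in old B1 against FO and 0 to 1 in old B1 against young B1. List genes called were 8 to 15, 13 to 21, 15 to 28 and 1 to 2 in the same order. Why these counts move was not tested.

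Deviations from the group means were correlated above 0.1 in 3 of 18 pairs of same-numbered arrays (range -0.391 to 0.228). The lowest values, -0.391 and -0.39, came from pairs that hold old FO replicate 2 or old B1 replicate 3. This measure cannot exclude a shared mouse, sort or batch behind the replicate number. With the replicate number as a block the members called numbered 3, 5, 3 and 0 and the list genes 12, 18, 19 and 1, in the same order of comparisons. Values near or under an array's 25th percentile, such as Ryr2 in ABC, limit how exactly a difference can be sized.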

Other observations

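Close relatives of the store-operated entry genes were looked at after their values were seen. Stim2, the second store sensor, was not called in ABC against old B1 (-0.15, 95% interval -0.54 to 0.24, limma adjusted p = 0.648) or in old B1 against FO (0.23, 95% interval -0.16 to 0.62, adjusted p = 0.445). It had 1306, 1279.8 and 1470.4 in ABC, 1799.9, 1722 and 1079 in old B1, and 1293, 1293 and 1232 in FO, the lowest old B1 value being that of replicate 3. With array weights, without old B1 replicate 3, and without that array and old FO replicate 2 together, Stim2 was called in both comparisons. Orai2 had 0.12 (95% interval -0.21 to 0.44) in ABC against old B1 and -0.05 (95% interval -0.37 to 0.27) in old B1 against FO. Orai3 had 0.35 (95% interval -0.26 to 0.96) in ABC against old B1 and -0.11 (95% interval -0.73 to 0.50) in old B1 against FO.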
